A study of Danio rerio with 10 samples.

Results

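The SOX and T-box genes encode 2 families of transcription factors that set cell identity in the embryo. In the deposited region tables of this zebrafish eye muscle study, 38 of the 24860 genes named were taken: every symbol that starts with sox or tbx and a digit, apart from 3 genes left out by the rule (sox2, sox10 and tbx1). They comprise 24 SOX genes and 14 T-box genes. Chromatin immunoprecipitation with sequencing mapped 3 modifications of histone H3 in the lateral rectus, a muscle that turns the eye: acetylation of lysine 27 (H3K27Ac) and trimethylation of lysine 4 (H3K4me3) and of lysine 27 (H3K27me3). The groups were control muscle, muscle at 9 hours post-injury (hpi) and muscle at 18 hpi, with 1 library for each mark and group, 9 in all, and 1 input library that was not used here. The fish were adults of 4 to 18 months, described as wild type in the design text and as wild type and α-actin::EGFP transgenic in the growth protocol, and the sources used here do not say which fish entered which pool. Injury was removal of a muscle segment of 0.5 to 1.0 mm, about 50% of the muscle. Tissue was pooled within a group: 119 fish gave the control muscle, 192 the muscle at 9 hpi and 200 that at 18 hpi. With 1 pooled library per mark and group, no spread between animals and no test of a difference can be given, and every difference below is a comparison of libraries.

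SOX proteins bind DNA through an HMG box and bend it, while T-box proteins bind through the domain that names them; both families act early in the choice between neural, mesodermal, vascular and skeletal fates. Many of their genes are classic targets of Polycomb repression: the Polycomb complex writes H3K27me3 over long stretches of genes that a tissue keeps silent. H3K4me3 marks promoters, H3K27Ac marks active promoters and enhancers, and a promoter with both H3K4me3 and H3K27me3 is called bivalent in embryonic cells. In pooled tissue both marks at one place can also come from different cells.

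For each gene and mark, the start region was the region whose middle lay nearest the gene start, up to 5000 bp away. Coordinates follow the zebrafish build danRer10. The value of a region is its average pileup, the mean number of overlapping sequence tags in the region. A start region was found for 18 members in H3K27Ac, 25 in H3K4me3 and 27 in H3K27me3, and 34 members had one in at least 1 mark. The other 4 were sox14, sox5, tbx24 and tbx5b. The limit separated close cases: sox21a in H3K27me3 (4695 bp, pileups of 8.47, 8.11 and 9.33, in the order control, 9 hpi, 18 hpi, which holds wherever 3 values stand together) and tbx21 in H3K27Ac (4688 bp upstream; 8.44, 7.31 and 7.80) lay just inside, and sox14 in H3K27me3 (5323 bp; 14.4, 17.0 and 18.1) just outside. Some gene symbols in the files are older names. The gene called tbx6 lies on chromosome 5, where RefSeq lists tbx6 as an older name of tbx16l, and tbx24 lies on chromosome 12 and is listed as an older name of tbx6.

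**Figure D1:**
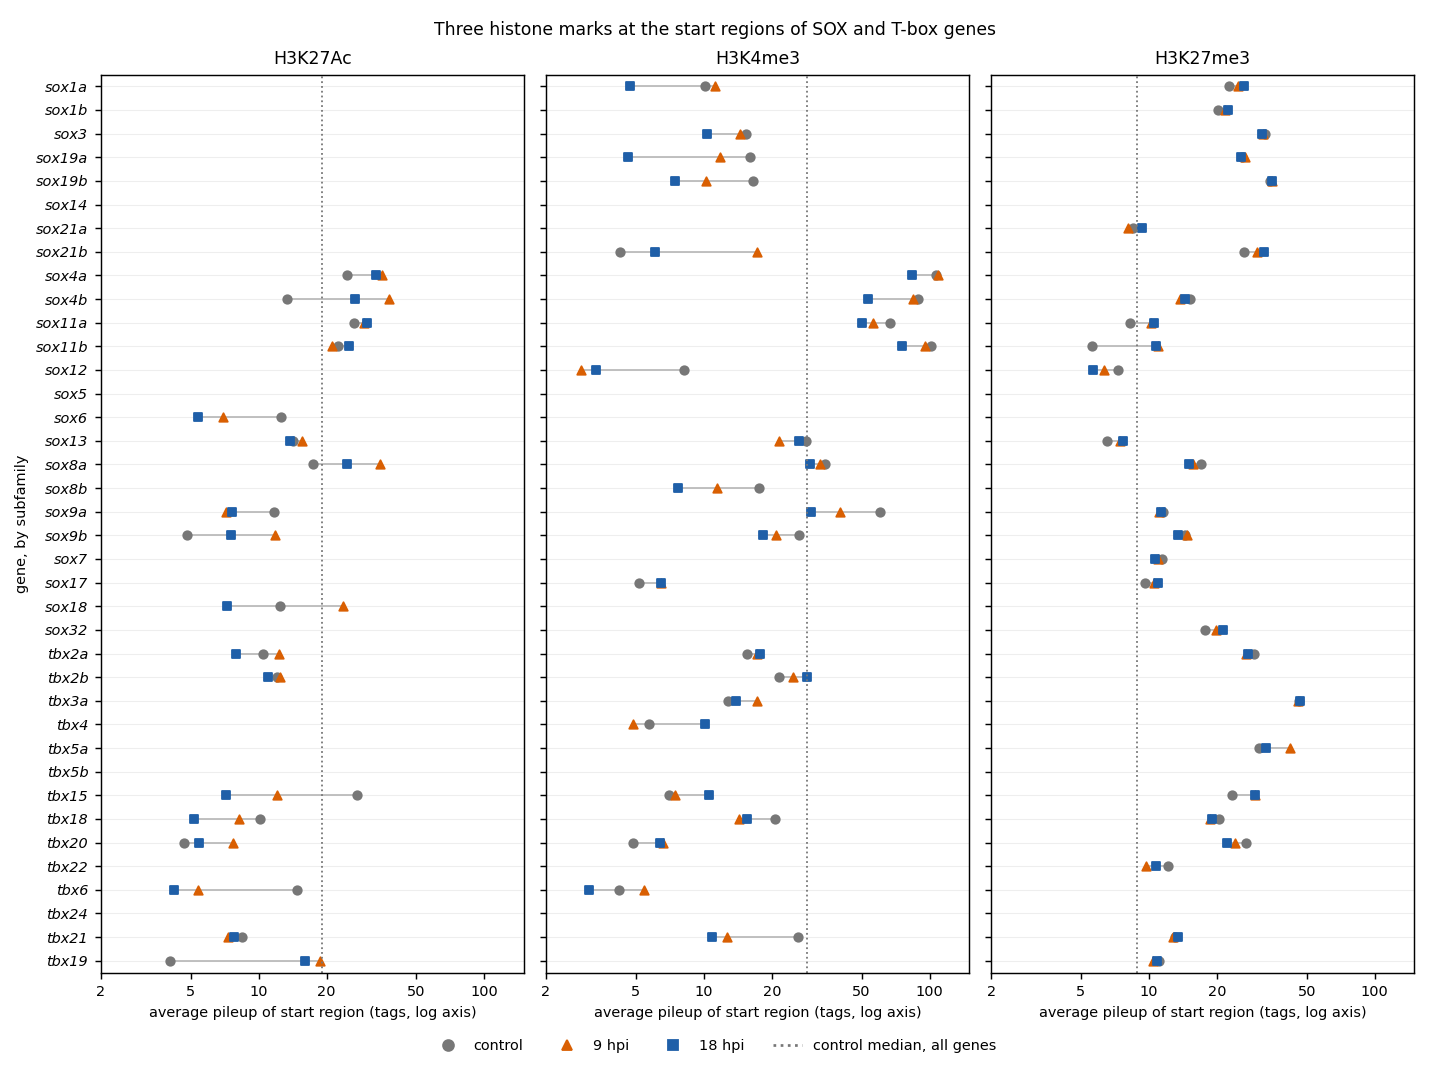
Average pileup of the start region of each SOX and T-box gene in control muscle (circles), at 9 hpi (triangles) and at 18 hpi (squares) on a log axis, 1 panel per mark; the dotted line is the control median of all genes. Most members lie left of the line in H3K27Ac and H3K4me3 and right of it in H3K27me3, where the 3 times nearly coincide.

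By median, the members carried more H3K27me3 and less of both active marks than the typical gene with a start region. In H3K27me3 their median pileup was 17.0 in control, then 15.7 at 9 hpi and 15.1 by 18 hpi, against 8.82, 8.93 and 8.79 over all 10078 genes. In control, 14 of the 27 members reached the 90th percentile of all genes, a pileup of 15.9. In H3K4me3 the members' median was 16.6 in control muscle, 14.5 by 9 hpi and 10.9 by 18 hpi, against 28.7, 27.7 and 29.2 over all 17564 genes. In H3K27Ac it was 12.5, 12.4 and 7.86, against 19.0, 23.9 and 16.8 over all 17141 genes. In control, 5 of 25 members reached the 90th percentile of all genes in H3K4me3, a pileup of 56.3, and 0 of 18 that in H3K27Ac. A CpG island, a stretch rich in CG pairs by the authors' annotation, lay in the start region of 70.4% of the members in H3K27me3 and 76.0% in H3K4me3, against 26.2% and 25.2% of all genes. In pooled tissue, fewer cells of a type and less of a mark in each cell cannot be told apart.

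The combination of H3K4me3 and H3K27me3 start regions without one of H3K27Ac was found at 8 of the 34 members (23.5%), against 4.85% of all 21331 genes with a start region. These were the neural genes sox1a, sox3, sox19a, sox19b and sox21b, with sox12, sox17 and tbx3a. All 3 marks were found at 12 members (35.3%), against 29.3% of all genes. Both active marks without H3K27me3, the pattern of 44.6% of all genes, were found at 3 members (8.82%), sox4a, tbx2b and tbx6, and tbx2b lay in a long H3K27me3 region whose middle was over 5000 bp away.

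The H3K27me3 regions of the members were also long. Their median length was 13.0 kb, against 6.0 kb over all genes, and 11 of 27 were at or above the 90th percentile of 14.4 kb. Because distances run from the middle of a region, long regions can hold a gene start and still miss the 5000 bp limit. Counted by regions that hold the gene start, 34 of 38 members (89.5%) had an H3K27me3 region, against a background of 36.8% of all genes named. The 4 without one were sox18, sox4a, tbx24 and tbx6. The same count was 16 of 38 (42.1%) for H3K27Ac, where the background was 61.5%, and 23 of 38 (60.5%) for H3K4me3, where it was 63.7%.

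The highest and longest H3K27me3 among the start regions lay over tbx3a, which encodes a repressor active in limb, heart and eye development. Its region on chromosome 5 (71518201 to 71560000, 41.8 kb) had pileups of 46.3 in control, 45.8 at 9 hpi and then 46.5 at 18 hpi. An even longer region of 42.6 kb on chromosome 15 (27419801 to 27462400) held the starts of both tbx2b and tbx4, a pair of neighbouring genes, with 36.0, 31.0 and 31.2. The fin and heart gene tbx5a, which neighbours tbx3a, had a 0.8 kb start region of 30.7, 42 and 33.0 beside a 27.8 kb region over its start of 31.9, 30.7 and 30.6. The 0.8 kb region does not hold the tbx5a start and lies nearer the start of another gene, so its assignment is uncertain. The paralogue tbx5b had 21.4, 18.8 and 19.5 over 20 kb, and neither tbx5 gene was named in the tables of the active marks. H3K27me3 intervals were called over all of these limb and heart regulators at all 3 times.

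**Figure D2:**
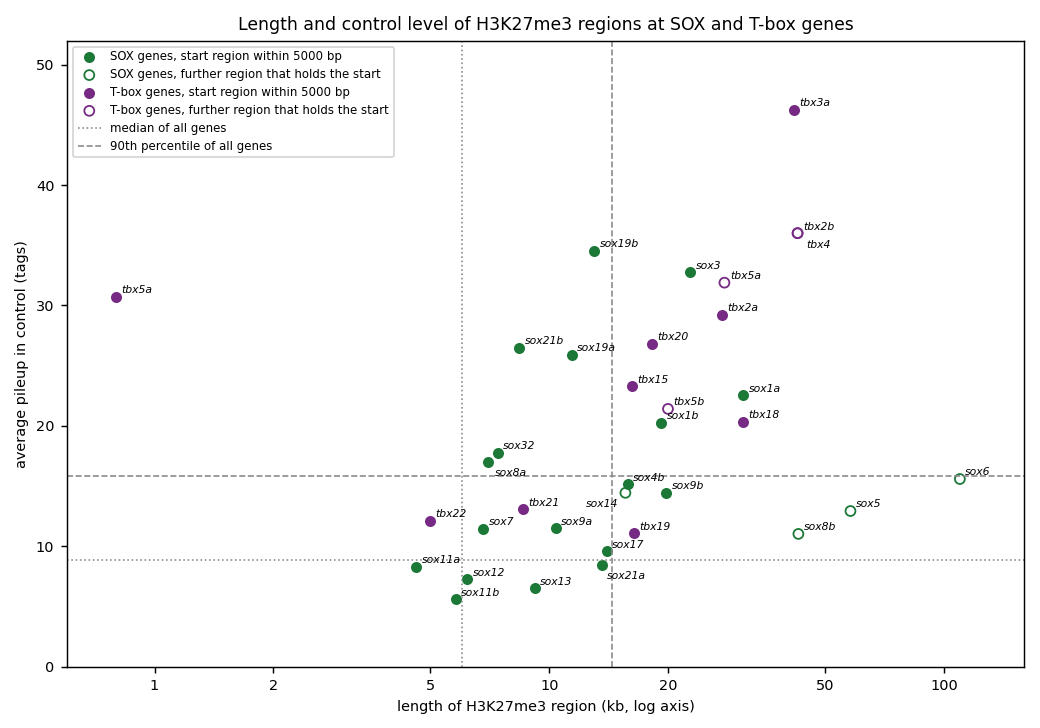
Length of each member's H3K27me3 region (kb, log axis) against its average pileup in control; filled circles are start regions within 5000 bp, open circles are further regions that hold the gene start. Lines mark the median (dotted) and the 90th percentile (dashed) of all genes with a start region; 14 of 27 start regions reach the 90th percentile of level and 11 of 27 that of length.

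No member changed 2-fold in H3K27me3 in either direction at 9 or 18 hpi. A change is log2((pileup + 1)/(control pileup + 1)), and "higher" and "lower" beside a count mean at least 2-fold. Over all 10078 genes, 0.357% were higher and 0.0695% lower at 9 hpi, and 0.456% higher and 0.159% lower at 18 hpi, so a count of 0 is near the background. The greatest change at both times was that of sox11b, which also had the lowest control value: 5.58, where no interval was called, against 10.99 at 9 hpi and 10.8 at 18 hpi. Its log2 change was 0.87 at 9 hpi and 0.84 by 18 hpi, while those of the other members lay between −0.32 and 0.44. Its maximum pileup in the region was 18 in control, then 47 at 9 hpi and 40 by 18 hpi, and this was the only member past 2-fold by maximum pileup. Intervals were called there only after injury, so the region was found through the libraries of its higher values. The rise of sox11b by either measure follows in part from that choice.

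**Figure D3:**
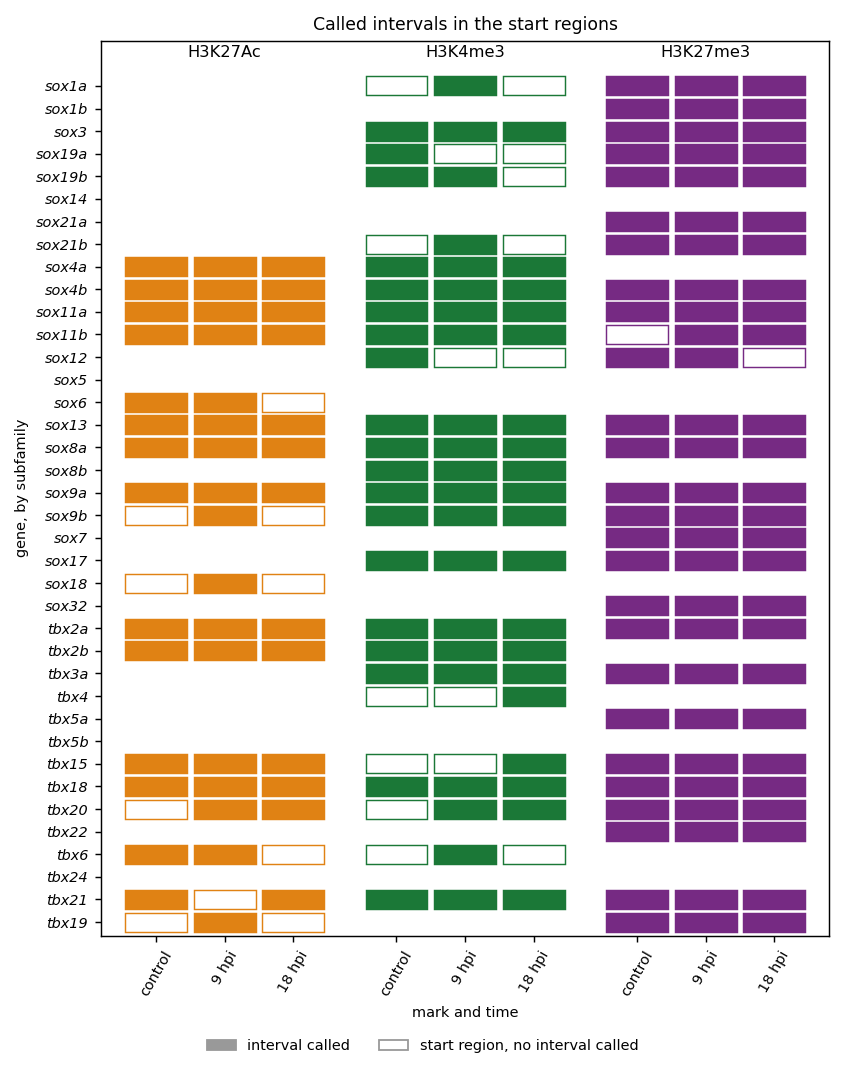
Start regions of the members by gene, mark and time; a filled tile means that the authors' list for that library holds an interval in the region, an open tile a start region without one in that library, and no tile no start region. H3K27me3 is filled at all 3 times for 25 of 27 members (92.6%, against 70.0% of all genes with a start region). H3K4me3 is filled for 16 of 25 (64.0%, against 89.2%) and H3K27Ac for 11 of 18 (61.1%, against 79.4%).

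Intervals of H3K4me3 and H3K27me3 overlapped at the start of 15 of the 34 members with a start region in control, of 17 at 9 hpi and of 15 at 18 hpi. That is 44.1% in control (exact 95% binomial interval 27.2% to 62.1%, which covers counting error only), 50.0% at 9 hpi and 44.1% at 18 hpi. The background over all 21331 genes with a start region was 23.4% in control, 22.5% at 9 hpi and 22.2% at 18 hpi. Of the members, 12 were double-marked at all 3 times, among them the SoxE genes sox8a, sox9a and sox9b, the SoxC genes sox11a and sox4b, and tbx2a, tbx3a, tbx18 and tbx21. The share of all genes double-marked at all 3 times was not counted. Membership changed at the edges for 8 members. The neural gene sox19a was double-marked in control only, sox1a and sox21b at 9 hpi only, and sox11b and tbx20 at both times after injury; sox12 was double-marked in control only and sox19b in control and at 9 hpi. Some answers rest on the choice of region. By the H3K4me3 region with the nearest middle tbx15 was double-marked at 18 hpi only, and by the one that holds the gene start at all 3 times. Regions that hold the gene start, an alternative chosen after seeing the data, also made sox8b and tbx2b double-marked throughout and tbx4 at 18 hpi only. By nearest middle those genes never were. The same alternative left sox19a double-marked at no time. Its totals were 17, 20 and 18, set against the same 34 members with a start region by nearest middle. No share of all genes was counted under this alternative, so these totals have no background.

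The H3K27Ac libraries differ over the whole table: the median log2 change of all kept regions was 0.23 at 9 hpi and −0.16 at 18 hpi, and that median is subtracted in the relative log2 changes given here for this mark. Over the 18 members measured in H3K27Ac, 3 were higher (16.7%) and 2 lower (11.1%) at 9 hpi as deposited, where 11.4% and 4.60% of all genes were. The higher ones were sox4b, sox9b and tbx19 and the lower ones tbx15 and tbx6. Of these, sox9b and tbx19 had an interval at 9 hpi alone. Their regions were thus found through the library in which they were highest, and their rise follows in part from that choice. After this centring, 2 were higher (sox4b and tbx19; background 6.00%) and 3 lower (tbx15, tbx6 and sox6; background 6.90%). At 18 hpi 1 member was higher (tbx19; background 3.79%) and 3 lower (tbx15, tbx6 and sox6; background 8.38%) as deposited. After centring, 2 were higher (tbx19 and sox4b; background 5.80%) and 2 lower (tbx15 and tbx6; background 6.05%). The members' median relative log2 changes were −0.096 (9 hpi) and 0.091 (18 hpi), against 0.14 and 0.0075 over all genes. The list thus held single members past 2-fold in both directions.

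In H3K4me3 1 of 25 members was higher (sox21b; 2.49% of all genes) and 1 lower (sox12; 2.72%) at 9 hpi. At 18 hpi 0 were higher (3.47% of all genes) and 5 were lower, 20% of the members against a background of 2.84%. Those 5 were sox12, sox19a, sox19b, sox8b and tbx21, of which sox12, sox19a and sox19b had mean signals below the 25th percentile of all regions. With a pseudocount of 5 in place of 1, sox19a alone of these was lower. An interval was called in control alone for sox12 and sox19a, and at 9 hpi alone for sox21b. Those regions were thus found through the library of their highest value, and their change follows in part from that choice. Below control without regard to size were 14 of 16 SOX genes (87.5%) and 3 of 9 T-box genes (33.3%) at 18 hpi, against 51.4% of all genes. Of the other HMG-box genes, relatives of the SOX family, 14 of 17 (82.4%) were below control. The median log2 change at 18 hpi was −0.52 for the SOX genes, 0.18 for the T-box genes and −0.014 for all genes. With 1 library per time, a test of these differences is not possible. The 8 myofibre markers measured in H3K4me3 were also lower in sum, with 104.1 in control, then 42.4 at 9 hpi and 53.0 by 18 hpi, and their part in the members' values was not tested.

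**Figure D4:**
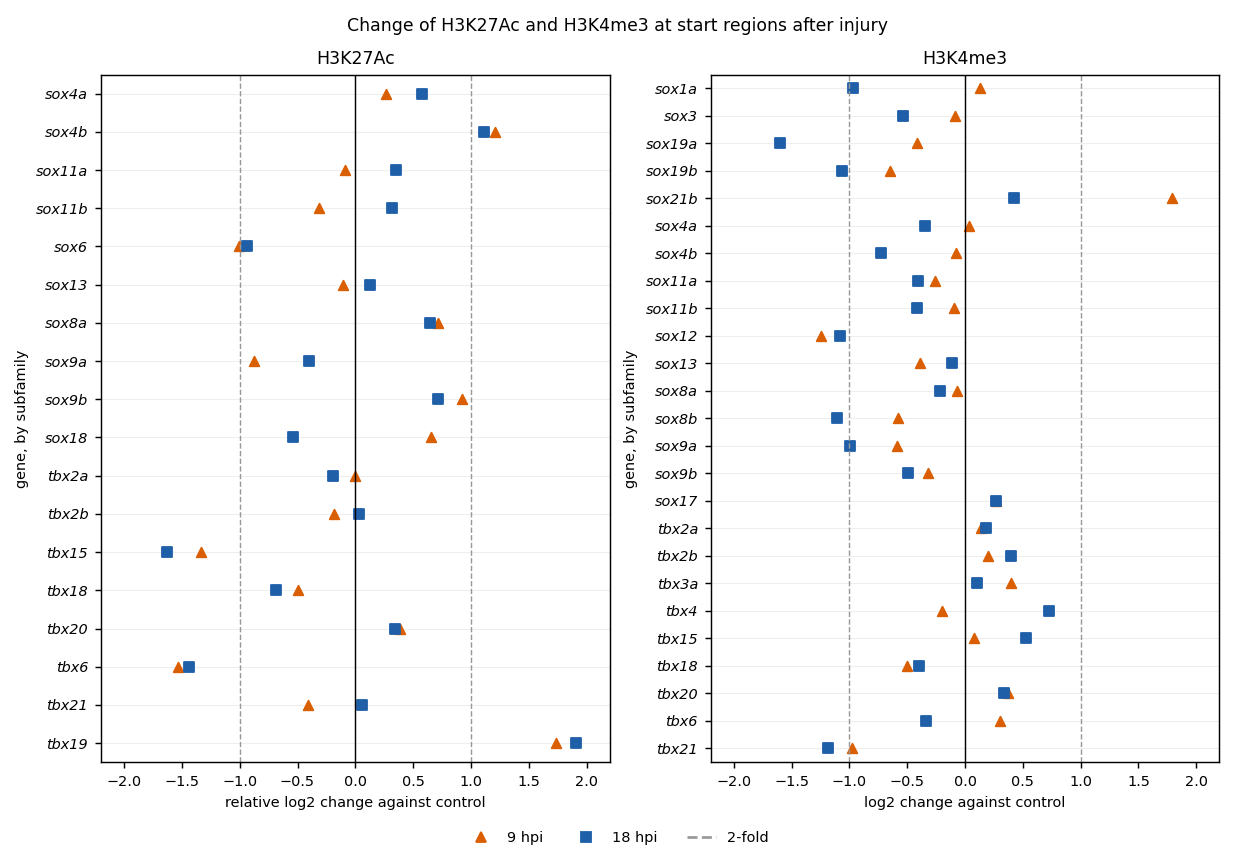
Change at 9 hpi (triangles) and 18 hpi (squares) against control for each member with a start region, left for H3K27Ac as relative log2 change and right for H3K4me3 as log2 change; dashed lines mark 2-fold. In H3K27Ac tbx19 and sox4b lie right of 2-fold and tbx15 and tbx6 left of it at both times, and in H3K4me3 5 members lie left of it at 18 hpi.

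Among the SoxB1 genes, which maintain neural progenitors, H3K27me3 changed little while the weaker H3K4me3 lay below control at 18 hpi. No start region of H3K27Ac was found for any of the 5. H3K27me3 over sox3 was 32.8 in control muscle, 31.9 by 9 hpi and 31.8 by 18 hpi, and over sox19b 34.5, 35.2 and 35.2. Over sox19a it was 25.9, 26.8 and 25.7, over sox1b 20.3, 21.8 and 22.3, and over sox1a 22.5, 24.7 and 26.2 in a 31.0 kb region. H3K4me3 at sox19a (chromosome 5, 23696001 to 23697600) was 15.96 in control, 11.7 at 9 hpi and then 4.60 at 18 hpi, a log2 change of −1.60 at 18 hpi. H3K4me3 at sox19b was 16.6, 10.2 and 7.43, with a log2 change of −1.06 at 18 hpi. For both genes an interval was called in control and none at 18 hpi. At sox1a the values were 10.2, 11.2 and 4.71, with an interval at 9 hpi alone, and at sox3 15.5, 14.5 and 10.3. All 4 SoxB1 genes measured in H3K4me3 had their lowest value at 18 hpi, and all but sox3 had mean signals over the 3 libraries below the 25th percentile of all regions of that mark.

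The SoxB2 gene sox21b, a regulator of neural differentiation, was the member with the greatest H3K4me3 change, and it went the other way at 9 hpi. Its region (chromosome 9, 53736601 to 53738800) had 4.27 in control, then 17.3 at 9 hpi and 6.06 by 18 hpi, with an interval called at 9 hpi alone. The log2 changes were 1.79 (9 hpi) and 0.42 (18 hpi). The region was found through the 9 hpi library, where it was highest, so its rise follows in part from that choice. H3K27me3 over the same gene was 26.5, 29.98 and 32.4. Its paralogue sox21a and the third SoxB2 gene, sox14, had H3K27me3 only, and the sox21a region lies nearer the start of ccdc65.

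The SoxC genes, which act in progenitors of nerve and mesenchyme, included the 4 members with the strongest H3K4me3 start regions. H3K4me3 at sox4a was 107 in control muscle, 109 by 9 hpi and 83.7 by 18 hpi, and at sox11b 102, 95.01 and 75.8. At sox4b it was 88.7, 84.2 and 53.1, and at sox11a 67.0, 55.9 and 50.3. Those 4 genes lay between the 95.1th and the 99.6th percentile of all genes in control and had their lowest value at 18 hpi. The fifth, sox12, had weak H3K4me3 of 8.19 in control, with an interval, and of 2.86 at 9 hpi and 3.34 at 18 hpi, without one. Its log2 changes were −1.25 (9 hpi) and −1.08 (18 hpi).

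H3K27Ac set sox4b apart from its paralogue. At sox4b (chromosome 16, 62401 to 72800) it was 13.3 in control, 37.8 at 9 hpi and then 26.8 at 18 hpi. At sox4a it was 24.7, 35.0 and 33.2, so sox4b was the lower of the pair in control and sox4a the lower at 9 hpi. The relative changes of sox4b were 1.21 (9 hpi) and 1.11 (18 hpi), and those of sox4a 0.26 and 0.57. The paralogues sox11a (26.4, 29.3 and 30.3) and sox11b (22.4, 21.0 and 25.2) had relative changes between −0.31 and 0.35. Only sox4b among these genes carried long H3K27me3, of 15.1, 13.7 and 14.5 over 15.8 kb, while no H3K27me3 region was named for sox4a. The shorter H3K27me3 regions at sox11a and sox12 had 8.27, 10.2 and 10.6 and 7.26, 6.35 and 5.63.

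The SoxE genes act in the neural crest and, in the case of sox9a and sox9b, in cartilage. H3K4me3 at sox9a was 60.4 in control muscle, 40.0 by 9 hpi and 29.9 by 18 hpi, and its log2 change at 18 hpi, −0.99, lay just short of 2-fold. At sox9b it was 26.4, 20.9 and 18.4. In H3K27Ac the pair differed in direction: sox9a had 11.7, 7.13 and 7.64, with relative log2 changes of −0.87 and −0.40, while sox9b had 4.79, 11.8 and 7.54, with 0.92 and 0.72. The control value of sox9b lay at the 3.0th percentile of all genes. An interval was called at 9 hpi alone for sox9b and at all 3 times for sox9a. The rise of sox9b, and with it the difference between the pair, follows in part from how its region was found. Both carried steady H3K27me3, of 11.5, 11.1 and 11.4 over 10.4 kb at sox9a and of 14.4, 14.7 and 13.4 over 19.8 kb at sox9b. At sox8b H3K4me3 was 17.6, 11.4 and 7.65, a log2 change of −1.10 at 18 hpi, and a 42.8 kb H3K27me3 region that held its start had 11.02, 11.2 and 10.3. H3K27Ac near sox8a was 17.3, 34.3 and 24.6, and H3K4me3 34.4, 32.7 and 29.6. Both regions lie nearer the start of lmf1, a gene of lipase maturation, so their assignment to sox8a, and with it the double marking of sox8a, is uncertain. H3K27me3 at sox8a was 17.0, 15.7 and 15.1. Further from its start, sox8b had stronger active marks than at it, with H3K27Ac of 51.2, 49.8 and 35.6 in a region 9459 bp downstream.

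The SoxD genes lack an activation domain of their own. In zebrafish Sox6 represses slow muscle genes in fast fibres, and in mammals Sox5 and Sox6 act with Sox9 in cartilage. H3K27Ac at the start region of sox6 (chromosome 7, 27044401 to 27050800) was 12.6 in control, 6.93 at 9 hpi and then 5.36 at 18 hpi, a relative log2 change of −1.003 and −0.94. The same held along the gene. Of the 10 H3K27Ac regions that name sox6, from 8.67 kb upstream to 68.93 kb downstream of its start, 10 had an interval in control, 5 at 9 hpi and 1 at 18 hpi. As deposited, all 10 were below control at both times, 5 by 2-fold or more at 9 hpi and 6 at 18 hpi, where 14.4% and 18.2% of all 41586 regions of the table were. After centring, 10 were below control at 9 hpi and 9 at 18 hpi, 7 and 3 of them by 2-fold or more, where 20.2% and 14.1% of all regions were. All 10 sox6 regions had an interval in control, while these backgrounds also cover regions called only after injury, so the sets are unlike. The region 16.83 kb into the gene had 17.5 in control, then 7.03 at 9 hpi and 6.78 by 18 hpi. The one that kept its interval at all 3 times lay 8.67 kb upstream, with 11.7, 10.6 and 10.7.

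A single H3K27me3 region of 109.8 kb held the sox6 start and all 10 acetylated regions, with 15.6 in control muscle, 12.095 by 9 hpi and 10.8 by 18 hpi. Both marks were below control over sox6 at 9 and 18 hpi, H3K27me3 by less than 2-fold. The sox5 gene differed along its length. Of its 11 H3K27Ac regions, the 5 within 50 kb of the start were below control at both times. The region 40.85 kb in had 10.5 in control, 5.25 at 9 hpi and then 4.06 at 18 hpi. Those 17.65, 20.25, 40.85 and 43.55 kb in had an interval in control alone. The 2 furthest in were above control at both times, also after centring, as the last one, 230.05 kb in, with 6.84, 9.75 and 12.4. The region 209.15 kb in had intervals only after injury. The changes of regions called on 1 side of the injury alone follow in part from how they were found. H3K27me3 over the far end of sox5 was 14.4, 9.24 and 8.15 in a region of 107.4 kb. Over the sox5 start it was 12.9, 13.0 and 12.6 in a region of 58.0 kb. The third SoxD gene, sox13, changed little at its start in H3K27Ac, with 14.1, 15.5 and 13.8. A region 4909 bp upstream had 5.68, 18.0 and 12.4. Its intervals were called only after injury, so its rise follows in part from how it was found. Regions further in were below control at both times, with 10.1, 4.1 and 5.9 at 32.99 kb and 11.8, 7.9 and 4.7 at 48.89 kb. The region 61.99 kb away had 8.4, 7.8 and 9.2. H3K4me3 at the sox13 start was 28.4, 21.5 and 26.3 and H3K27me3 6.49, 7.43 and 7.69.

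**Figure D5:**
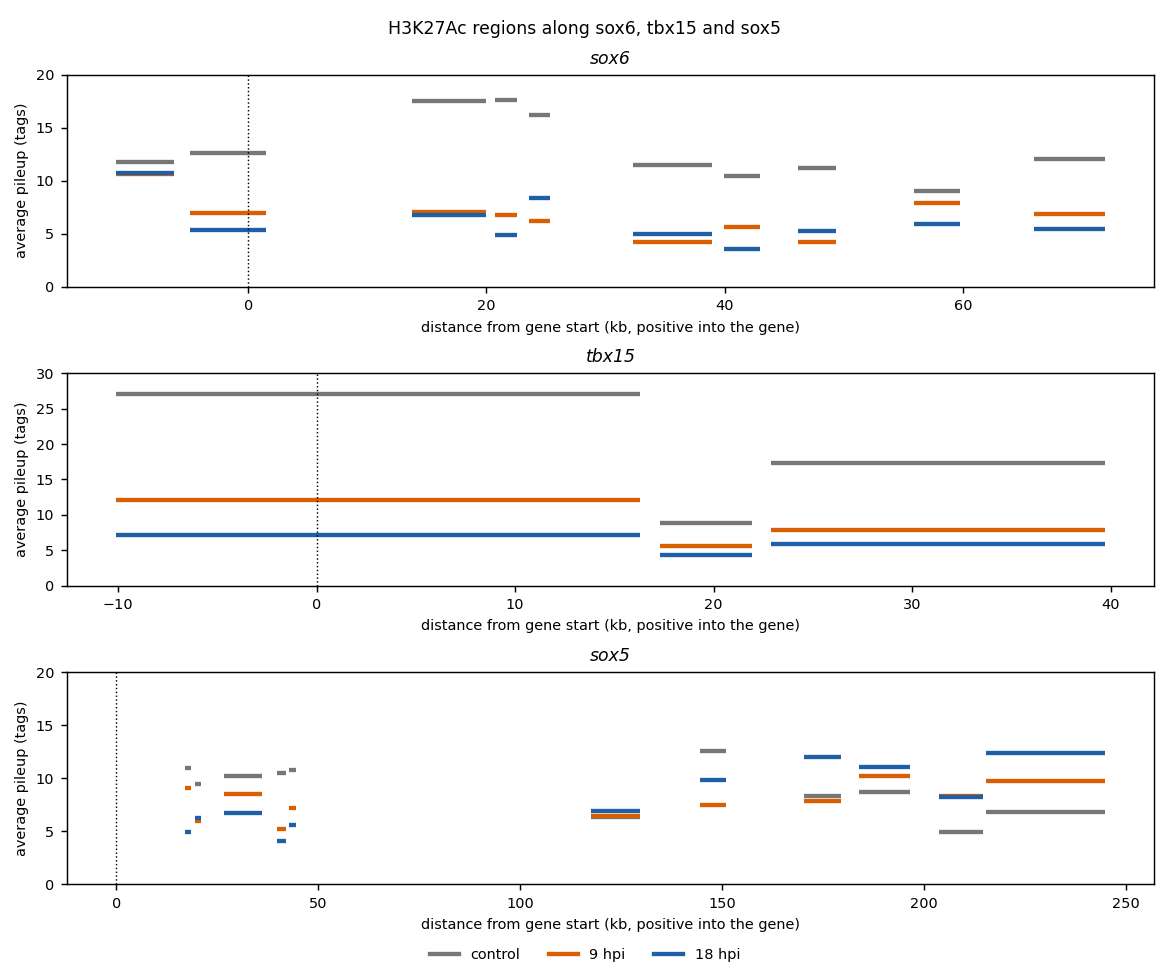
H3K27Ac regions along sox6, tbx15 and sox5 by distance from the gene start in kb (dotted line at the start), each drawn at its average pileup in control (grey), at 9 hpi (orange) and at 18 hpi (blue). Grey lies above both other colours in all 10 sox6 and all 3 tbx15 regions, while in sox5 the order turns between the start and the far end of the gene. Some sox5 regions had an interval in control alone or only after injury, so this turn follows in part from how they were found.

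The SoxF genes act in vessels (sox7, sox18) and endoderm (sox17, sox32). At the start of sox18 H3K27Ac was 12.4 in control, then 23.7 at 9 hpi and 7.27 by 18 hpi, with an interval at 9 hpi alone and relative log2 changes of 0.66 and −0.54. This start region was thus found through the library of its highest value. The other 3 H3K27Ac regions of sox18 had 9 hpi values of 9.49 to 18.6. The 6 endothelium markers measured in this mark summed to 68.1, 89.2 and 59.97. That sum was also greatest at 9 hpi, as was the H3K27Ac median of all genes (19.0, 23.9 and 16.8). After centring, the typical marker at 9 hpi stood 0.096 log2 units above control (median), against 0.14 for all genes. As deposited, 2 of the 6 (cdh5 and egfl7) were below control at that time, while tek went from 8.03 to 19.95. The part of these markers in the sox18 values was not tested. The nearest H3K4me3 region of sox18 lay 11.24 kb away. The endoderm genes sox17 and sox32, neighbours on chromosome 7, had H3K27me3 of 9.58, 10.5 and 10.9 and of 17.8, 19.8 and 21.3. For sox17 weak H3K4me3 of 5.18, 6.45 and 6.43 was called at all 3 times. The vessel gene sox7 had H3K27me3 of 11.4, 10.97 and 10.6 and no start region of the active marks.

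Of the T-box genes, tbx15 had the highest H3K27Ac of all start regions of members in control and the greatest decrease among them at 18 hpi. In mice Tbx15 is needed for normal numbers of fast glycolytic fibres. Its 26.4 kb start region (chromosome 9, 21240801 to 21267200), at the 99.8th percentile of length, had 27.1 in control muscle, 12.08 by 9 hpi and 7.16 by 18 hpi. The relative log2 changes were −1.33 (9 hpi) and −1.63 (18 hpi). Called intervals covered 26.4 kb of it in control, 17.0 kb at 9 hpi and 8.2 kb at 18 hpi. A further region centred 31.32 kb into the gene had 17.4, 7.79 and 5.83. H3K27me3 over the start was 23.3, 29.6 and 29.4 in a 16.2 kb region. The H3K4me3 region that held the start was not the one with the nearest middle; it had 39.0, 23.7 and 22.3 over 7.4 kb, a log2 change of −0.69 at 9 hpi and −0.78 at 18 hpi. The nearest one, 0.6 kb long, had 7.00, 7.42 and 10.5.

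The gene the files call tbx6 showed a like fall in H3K27Ac (chromosome 5, 41676401 to 41686000), with 14.9 in control, 5.41 at 9 hpi and then 4.23 at 18 hpi. Its relative log2 changes were −1.54 (9 hpi) and −1.44 (18 hpi). A second region 9653 bp upstream had 23.1, 8.34 and 5.11. H3K4me3 near its start was the lowest of all start regions of members in control, at 4.20, with 5.41 at 9 hpi and 3.11 at 18 hpi, and no H3K27me3 region named it. Its namesake tbx24, needed for somite borders in zebrafish, had a weak H3K27me3 region 19.9 kb away and no region of the other marks.

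In H3K27Ac, markers of muscle fibres, nerve, connective tissue and muscle stem cells moved with sox6, tbx15 and tbx6. The 8 myofibre markers measured in H3K27Ac, of 15 listed, summed to 147.8 in control, then 90.6 at 9 hpi and 64.2 by 18 hpi, with 4 lower at 9 hpi and 5 at 18 hpi and none at a pileup of 0. Leukocyte markers moved the other way: 6 of 10 were measured in H3K27Ac and summed to 41.96, 104.96 and 72.96. Their median relative log2 change at 9 hpi was 1.13. That sum, like sox4b, sox9b and tbx19, was greatest at 9 hpi, and its part in those genes was not tested. The sox9b and tbx19 regions were found through the 9 hpi library alone, and the H3K27Ac median of all genes was also greatest at 9 hpi. Nerve and Schwann cell markers, 4 of 6 measured, summed to 67.0, 33.4 and 30.5. Fibroblast and tendon markers, 5 of 7 measured, summed to 82.2, 52.8 and 50.8, with 3 lower and 1 higher at 18 hpi. Muscle stem cell markers, 4 of 5 measured, summed to 55.2, 31.5 and 23.2, with 1 lower at 18 hpi. In H3K4me3 nerve and Schwann cell markers summed to 56.15, 39.4 and 60.48, and muscle stem cell markers to 44.28, 41.15 and 48.86. Both of those sums were above control at 18 hpi. The H3K4me3 sums of myofibre markers, given above, and of fibroblast and tendon markers (109.24, 80.37 and 80.16) were below it. The part of these lists in the members' values was not tested. The libraries are labelled as adult muscle cells, and H3K27Ac intervals were called in control at all 8 myofibre genes measured. No listed cartilage or retina marker had a start region in either active mark, while col9a1a, a SOX9 cartilage target, had both. The epidermis marker krt4 also had both, with H3K27Ac of 15.0, 12.7 and 21.7 and H3K4me3 of 24.0, 10.5 and 12.0. The epidermis marker krt5 had H3K4me3 alone, of 10.1, 6.4 and 4.6.

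The start region with the greatest rise in H3K27Ac was that of tbx19, whose mammalian counterpart acts in pituitary cells. Its region is short, 0.6 kb in the gene (chromosome 6, 8968201 to 8968800), and had 4.06 in control muscle, 18.7 by 9 hpi and 16 by 18 hpi. The relative log2 changes were 1.74 (9 hpi) and 1.91 (18 hpi), though an interval was called at 9 hpi alone. The region was thus found through the library in which it was highest, so its rise follows in part from that choice. It lay inside a 16.4 kb H3K27me3 region with 11.1, 10.5 and 10.8. The nearest H3K4me3 region was 11.07 kb upstream, with 22.7, 28.1 and 24.7.

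The lymphocyte gene tbx21, T-bet in mammals, went down in H3K4me3 while leukocyte markers went up in that mark. At its start (chromosome 12, 28632801 to 28637600) H3K4me3 was 26.1 in control, 12.7 at 9 hpi and then 10.9 at 18 hpi, a log2 change of −0.98 and −1.19. The 6 leukocyte markers measured, mostly myeloid genes, summed to 29.1, 78.6 and 103.8 in H3K4me3. The H3K27Ac region that holds the tbx21 start had 16.6, 10.9 and 7.28, and all 4 H3K27Ac regions of the gene were below control at both times as deposited, 3 of them also at 18 hpi after centring. H3K27me3 over it stayed at 13.1, 12.8 and 13.4.

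The remaining T-box genes changed less than 2-fold at their start regions. The repressor genes tbx2a and tbx2b had H3K27Ac of 10.4, 12.3 and 7.92 and of 12.0, 12.4 and 10.96, and H3K4me3 of 15.5, 17.1 and 17.7 and of 21.6, 24.9 and 28.7. For tbx3a H3K4me3 was 12.8, 17.2 and 13.9 beneath its high H3K27me3. At tbx4 H3K4me3 was 5.69, 4.84 and 10.1, with an interval at 18 hpi alone. The heart gene tbx20 had H3K27Ac of 4.69, 7.70 and 5.46, H3K4me3 of 4.86, 6.6 and 6.41 and H3K27me3 of 26.8, 24.2 and 22.3. At tbx18, a gene of heart and mesenchyme, H3K27Ac was 10.1, 8.21 and 5.17, H3K4me3 20.7, 14.3 and 15.5 and H3K27me3 20.3, 18.6 and 19.0. A second tbx18 region of H3K27Ac, 14.2 kb long, had 12.7, 3.99 and 2.81. The palate gene tbx22 had H3K27me3 alone, with 12.13, 9.71 and 10.7.

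Of the T-box genes named without a number, mgaa, which encodes a broadly expressed protein with a T-box and a helix-loop-helix domain, was the only one with start regions of the active marks: H3K27Ac of 71.8, 102 and 56.9. The other 5 measured (ta, tbr1a, tbr1b, eomesa and eomesb) had start regions of H3K27me3 alone, from 10.1 at ta to 49.2 at eomesb in control, and none changed 2-fold. Of the other HMG-box genes, 0 of 16 measured in H3K27Ac and 0 of 17 in H3K4me3 were higher or lower at either time, and their median H3K4me3 log2 change at 18 hpi was −0.30. Of the SOX9 cartilage targets only col9a1a and hapln1a had H3K27Ac start regions. The gene hapln1a, for a hyaluronan link protein, was lower at both times (background 4.60% at 9 hpi and 8.38% at 18 hpi). It had 12.9 in control, then 4.19 at 9 hpi and 3.72 by 18 hpi. Its region had an interval in control alone, so its fall follows in part from how it was found.

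Sox6 represses slow fibre genes in zebrafish fast fibres. Of 5 genes listed for Sox6 and slow fibres and measured in H3K27Ac, 1 was lower at 9 hpi (smyhc3, background 4.60%). The homeobox gene prox1b was higher at both times (background 11.4% at 9 hpi and 3.79% at 18 hpi). At 18 hpi 3 of the 5 were lower (smyhc3, tnnc1b and tnni1b, background 8.38%). Those 3 genes encode proteins of muscle fibres, and the myofibre markers given above fell in sum as well. The part of the myofibre markers in these values was not tested. The smyhc3 and tnni1b regions had an interval in control alone. Both were thus found through the library of their highest value, and their fall follows in part from that choice. The backgrounds also cover regions called only after injury. The slow myosin gene smyhc3 had 9.21 in control muscle, 2.73 by 9 hpi and 1.69 by 18 hpi, and prox1b had 8.65, 24.2 and 20.3. The prox1b region had an interval at 9 hpi alone. It was thus found through the library of its highest value, and its rise follows in part from that choice. Of 6 vessel genes 1 was higher at 9 hpi as deposited (tek, an endothelial receptor, with 8.03, 19.95 and 15.8) and 0 at 18 hpi; after centring 0 were higher at 9 hpi and 1, again tek, at 18 hpi. Of the mesoderm T-box targets, 0 of 2 in H3K27Ac, 0 of 4 in H3K4me3 and 0 of 9 in H3K27me3 were higher or lower. In that list msgn1, a presomitic mesoderm gene, had all 3 marks, with H3K27Ac of 38.0, 49.4 and 40.5 and H3K27me3 of 23.8, 24.1 and 22.9.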

How the data were processed

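ChIP-seq libraries were grouped by their sample titles. Files comprise interval lists per library and 1 region table per mark. Their values are signal, which the authors deposited as the average and maximum tag pileup of each region, with no ratio to input, per the file headers. The deposited tables also hold other columns, 0 or 1 for an interval of each library, CpG island counts, lengths, gene names and distances. BWA, MACS2 (2.1.0), SICER (12.1) and the build danRer10 are named in the submitters' processing notes, with no role; the sources used here do not say how libraries were normalized to each other. Distances run from the region's middle (97.9% to 99.0% of region pairs of 1 gene, within 1 bp). Coordinates count from 1. Tag numbers per library are unknown, so depth gives no precision.

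Changes used a pseudocount of 1, which understates weak regions. Regions with a mean signal below the 25th percentile of a table were left out of its median used for centring, and members were not filtered. Higher or lower meant 2-fold or more. Intervals overlapped by at least 1 bp. Every member past 2-fold, at an extreme of control signal or with all 3 marks was named, and the other members named in passing were chosen after their values were seen. Members and gene lists were chosen with earlier results of these data known. Calls were tested on simulated data. No column lacked a sample. Alternatives were pseudocount, low-signal filter, choice of region, maximum pileup, centring and overlap. Python 3.11.15, pandas 2.3.3, numpy 2.4.6, scipy 1.17.1 and matplotlib 3.10.9 were used.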

Additional observations from a re-analysis of the deposited data

How the results depend on the processing

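No paired analysis was possible because each mark and time has 1 library. Of 98 values of single genes under the alternatives, 84 kept their direction and stayed past 2-fold, 14 fell short of it and 0 reversed. Many of the 84 could not move, because the alternative kept the same region and formula. With a pseudocount of 5, sox9b, tbx15 and tbx6 fell short in H3K27Ac at 9 hpi and sox6 at 18 hpi. In H3K4me3 sox12 fell short at both times, and sox19b, sox8b and tbx21 at 18 hpi. The values of sox4b, tbx19, sox21b and sox19a, and those of tbx15 and tbx6 at 18 hpi, stayed past 2-fold. Of 93 counts under the alternatives, 75 stayed within 1.5 times, and the cause of the other moves was not tested. In H3K27Ac, members higher at 9 hpi numbered 5 by maximum pileup, and members lower 0 by a pseudocount of 5, 0 by maximum pileup and 1 with regions within 1000 bp. At 18 hpi members higher in H3K27Ac numbered 2 by maximum pileup, 2 after centring and 0 with regions that hold the gene start, an alternative chosen after seeing the data; members lower numbered 1 within 1000 bp. In H3K4me3 at 9 hpi, without low-signal members 0 were higher and 0 lower, and 0 were lower with a pseudocount of 5 or within 1000 bp. At 18 hpi members lower in H3K4me3 numbered 1 with a pseudocount of 5, 2 without low-signal members and 3 within 1000 bp. In H3K27me3 1 member was higher by maximum pileup at each time. Double-marked members at 9 hpi numbered 10 with intervals at or above the 25th percentile of maximum pileup. Fewer members measured lowers the counts within 1000 bp by construction.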
